A study of Mus musculus with 16 samples.

Results

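Peg3, Plagl1, H19, Igf2, Igf2r, Cdkn1c, Dlk1, Meg3, Mest and Grb10 are imprinted genes of the mouse that are known for effects on growth. They were followed here through 8 tissues of fed and fasting mice. The 10 genes were taken by symbol from the 55385 genes of the count table, with earlier results of these data in view. They were selected on their log2 fold changes between fasting and fed libraries, so that comparison is given below as a description and without a test. Differences between tissues were not used in the choice and were tested.

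White and brown adipose tissue, muscle, heart, liver, kidney, spleen and lung were taken from male C57BL/6 mice, which were 12 weeks old on arrival and were kept for at least 10 to 14 days before the experiment. Fed mice had free access to standard chow, and fasting mice went without food for 24 h. The labels name no engineered allele in any group. Tissue of the 3 mice of a treatment was pooled, and each tissue and treatment gave 1 short-read RNA library, 16 libraries in all, so a difference between fed and fasting within a tissue has no replicate error. The same pools of mice gave all 8 tissues, which are therefore not independent animals.

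The libraries held 14245178 to 36069968 counts on genes, and 3 counts, used here as a floor, corresponded to 0.0832 to 0.211 CPM (counts per 1000000 counts of the library). Each of the 8 tissues had the highest sum of its own marker genes. Some libraries also held genes of other tissues, for example pancreatic acinar genes in fed spleen, and the main shifts of this kind are given beside the members' results. Intervals are exact 95% counting intervals and cover counting error only. In pooled tissue, fewer cells of a type and less RNA per cell cannot be told apart.

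An imprinted gene is transcribed mainly from the copy inherited from one parent, and the silenced copy usually carries DNA methylation at a control region laid down in the germ line. Paternally expressed genes such as Igf2, Dlk1, Peg3, Mest and Plagl1 are mostly linked to growth before birth, whereas maternally expressed genes such as H19, Cdkn1c, Igf2r and Meg3 are mostly linked to its restraint. Many of them are high in the fetus and are silenced in most organs after birth, with remaining expression in adipose tissue, muscle and endocrine organs. The counts used here do not separate the parental copies, so they give the summed level of both.

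The members lie in several imprinted clusters of GRCm38. H19 (chr7:142575529-142578143), Igf2 (chr7:142650766-142666816) and Cdkn1c (chr7:143458339-143461050) lie on the minus strand of distal chromosome 7, with 72.6 kb between H19 and Igf2. Dlk1 (chr12:109452823-109463336) and Meg3 (chr12:109541001-109571726) share a cluster on the plus strand of chromosome 12, with 77.7 kb between them. Peg3 (chr7:6703892-6730431, minus strand) lies in a cluster of its own near the other end of chromosome 7, 147 bases from the divergent gene Usp29 and 7.44 kb from Zim1, a zinc-finger gene on the same strand.

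The window at the start of Peg3 is shown with that of its neighbour Zim1 because the Peg3 levels carry the main pattern below and Zim1 had high values in several of the same libraries. The windows run from 250 bases before to 50 bases after the start site, are written 5′ to 3′ on the strand of the gene, and come from RefSeq on GRCm38.p6. Capitals mark letters of 3 motifs searched on both strands, the cAMP response element TGACGTCA, the letters GGGGCCCC bound by PLAGL1 (the zinc-finger protein of the member Plagl1), and the forkhead motif GTAAACA.
Peg3, chr7:6730370-6730669, minus strand: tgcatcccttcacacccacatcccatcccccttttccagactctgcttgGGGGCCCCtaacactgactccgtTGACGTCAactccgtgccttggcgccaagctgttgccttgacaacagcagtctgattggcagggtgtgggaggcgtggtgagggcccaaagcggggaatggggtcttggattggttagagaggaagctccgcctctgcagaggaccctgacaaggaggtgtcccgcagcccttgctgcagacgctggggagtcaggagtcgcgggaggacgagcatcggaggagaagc
Zim1, chr7:6696383-6696682, minus strand: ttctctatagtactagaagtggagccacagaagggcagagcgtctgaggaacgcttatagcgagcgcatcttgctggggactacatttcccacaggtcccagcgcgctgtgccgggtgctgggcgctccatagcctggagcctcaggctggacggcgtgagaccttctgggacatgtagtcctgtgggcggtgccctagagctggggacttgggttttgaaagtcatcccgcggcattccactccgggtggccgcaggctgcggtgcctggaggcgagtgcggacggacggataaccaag

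In the Peg3 window, GGGGCCCC began 201 bases and TGACGTCA 178 bases before the start site, and the motifs did not overlap. The Zim1 window held none of the 3 letter strings. Of 32851 windows of the same length, 1.08% held GGGGCCCC, 1.79% held TGACGTCA and 3.65% held GTAAACA. The Peg3 window shared 263 bases with that of Usp29 and had 13 CpG dinucleotides, against a median of 7 over all windows. Windows were found for 8 of the 10 members, not for H19 and Cdkn1c. Among the others, a Meg3 window held TGACGTCA 57 bases before its start, and the Dlk1 window held GTAAACA 87 and 67 bases before its start. A match of letters describes the sequence and not a site in use.

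Peg3, a paternally expressed gene for a zinc-finger protein, is known for effects on fetal growth, body fat and maternal behaviour. It had more CPM in the fasting than in the fed library of all 8 tissues. In white adipose, Peg3 stood at 276 CPM in the fed and 1774 CPM in the fasting library. In brown adipose, it stood at 116 and 730 CPM, the next highest pair. The log2 fold change (of CPM + 0.01, fasting over fed) was 2.69 in white adipose with a counting interval of 2.65 to 2.72, and 2.65 in brown adipose with an interval of 2.58 to 2.72.

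Outside adipose tissue, Peg3 had lower levels and was higher in the fasting library by smaller folds. Kidney held 61.7 CPM fed and 171 CPM fasting (log2 fold change 1.47), and lung held 49.0 and 101 CPM (1.05). Muscle held 34.4 CPM fed and 121 CPM fasting (1.82), and liver held 24.5 and 67.3 CPM (1.46). Heart had the smallest difference, with 22.0 CPM fed and 43.6 CPM fasting and a log2 fold change of 0.98 (interval 0.80 to 1.17). Spleen had the lowest fed level, 9.36 CPM, and stood at 46.3 CPM in the fasting library (2.31, interval 2.10 to 2.52). Across the 8 tissues, the fed levels of Peg3 spread from 9.36 to 276 CPM and the fasting levels from 43.6 to 1774 CPM, so the ranges overlap although every fasting library was above the fed library of its tissue.

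**Figure D1:**
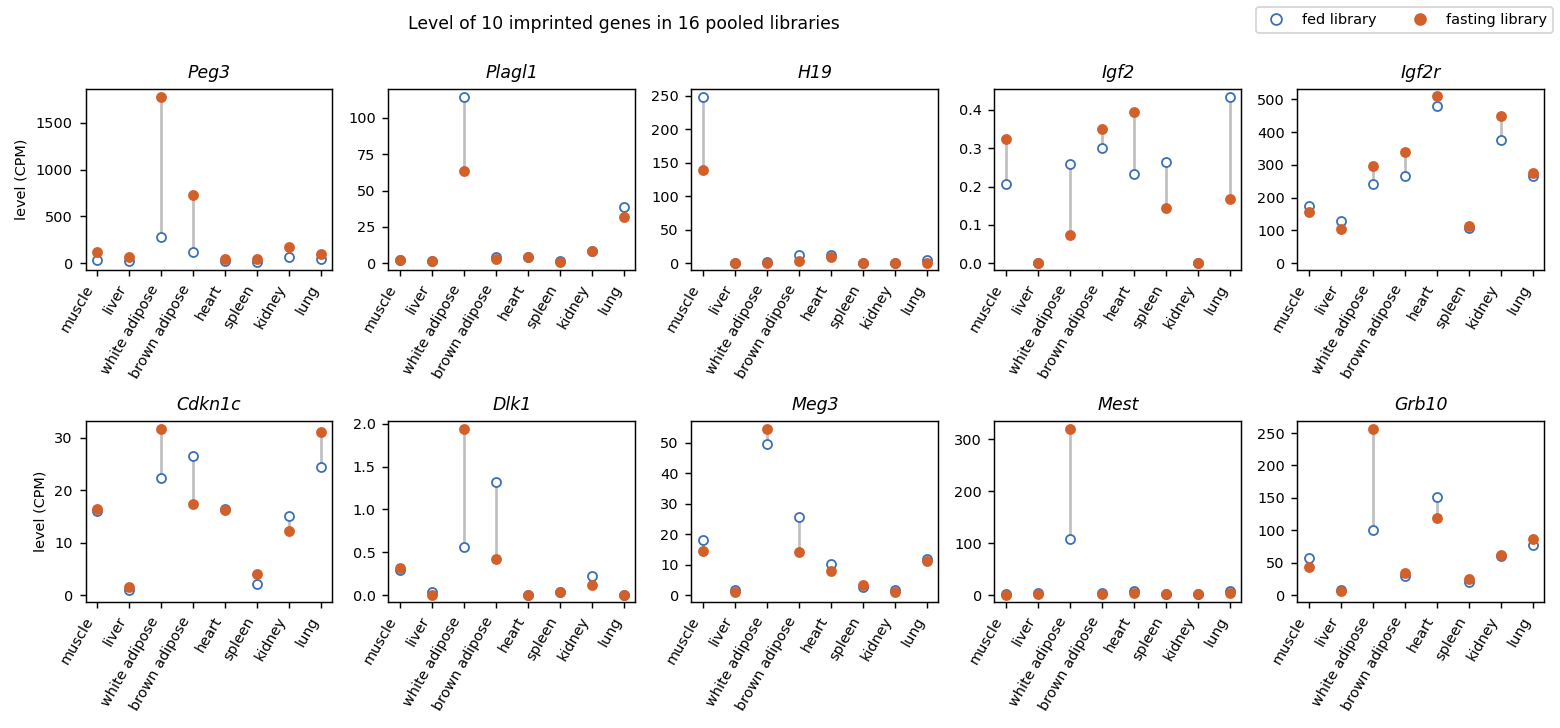
Level of each of the 10 genes in CPM (vertical axis, own linear scale for each gene) by tissue (horizontal axis), with an open point for the fed and a filled point for the fasting library, 1 library each, joined by a grey line. The fasting points of Peg3 lie above the fed points in all 8 tissues, H19 stands high in muscle, Mest in white adipose, and Igf2 stays under 0.5 CPM throughout.

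Among all genes with at least 1 CPM in a library of the tissue, the log2 fold change of Peg3 ranked 14 of 17358 in spleen and 61 of 15374 in brown adipose, counted from the highest. It ranked 545 of 15135 in heart and 918 of 17494 in white adipose, where many other genes also stood higher in the fasting library. Of 11576 genes with at least 1 CPM in each tissue, 24 (0.207%) were higher by more than 0.5 on the log2 scale in all 8 tissues, and Peg3 was the 12th of these by its median of 1.65. The genes lower in all 8 tissues numbered 6 (0.0518%), and no member was among them. A fit across the 8 tissues with edgeR, on TMM-scaled counts with the tissue as a block, gave Peg3 a log2 fold change of 1.85 ± 0.20 (SE, 7 residual degrees of freedom).

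The other 9 members did not share that pattern. A member was called higher or lower in a tissue where its log2 fold change was past 0.5 and at least 1 of the pair of libraries had 1 CPM. Of the 80 combinations of a member and a tissue, 63 reached 1 CPM, of which 14 were higher, 17 were lower and 32 were within 0.5. Over all genes and tissues, 23.5% of 126755 combinations were called, 10.2% higher and 13.3% lower. Peg3 gave 8 of the 14 higher calls. The other members gave 6 higher and 17 lower calls among 55 combinations. Because this contrast chose the members, nothing is read from these shares.

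**Figure D2:**
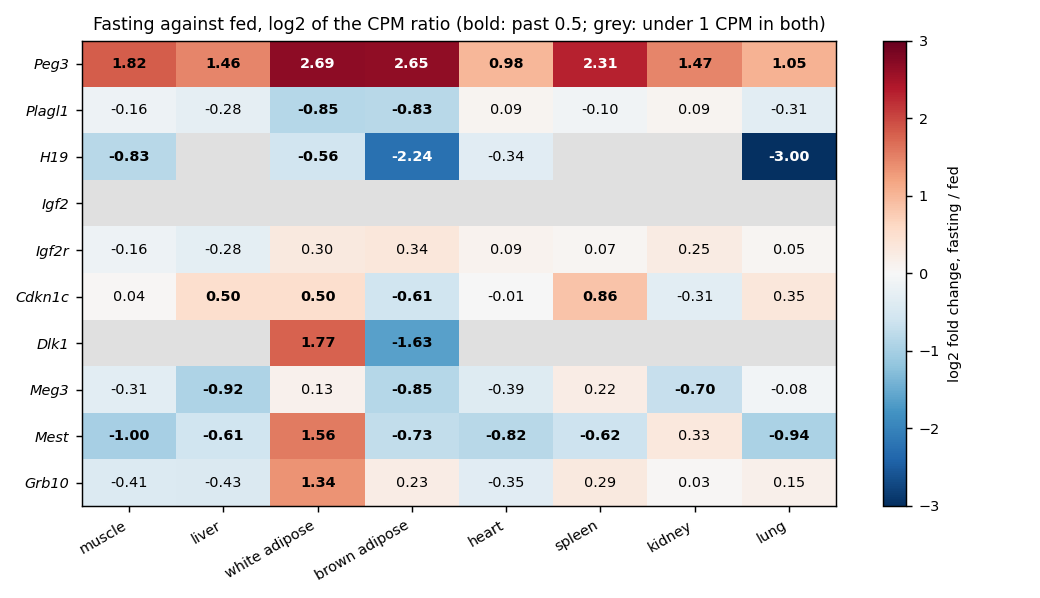
Log2 fold change, fasting over fed, of the 10 genes (rows) in each tissue (columns), coloured from blue (lower in fasting) to red (higher), with values past 0.5 in bold and grey cells where both libraries were under 1 CPM. Peg3 is red in all 8 columns, the white adipose column holds 5 higher calls and the brown adipose column 6 lower calls.

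The calls were spread unevenly over the tissues. White adipose had 9 members at 1 CPM, of which 5 were higher (Peg3, Dlk1, Mest, Grb10 and Cdkn1c) and 2 lower (Plagl1 and H19), where 22.5% of all genes were higher and 10.9% lower. Brown adipose also had 9 members at 1 CPM, of which only Peg3 was higher and 6 were lower (H19, Dlk1, Meg3, Plagl1, Mest and Cdkn1c), against 12.3% and 17.8% of all genes. The median log2 fold change of the members was 0.50 in white adipose, where that of all genes was 0.07, and −0.73 in brown adipose, where that of all genes was −0.03. Liver had 7 members at 1 CPM, of which Peg3 and Cdkn1c were higher and Meg3 and Mest lower, against 9.32% higher and 19.7% lower of all genes. Spleen also had 7, of which Peg3 and Cdkn1c were higher and Mest lower, against 5.99% and 4.47%.

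In the remaining tissues, Peg3 was the only member called higher. Muscle and lung each had 8 members at 1 CPM and H19 and Mest lower, where 9.39% of all genes were higher and 20.3% lower in muscle and 5.27% and 12.3% in lung. Heart had 8 members at 1 CPM and Mest lower (10.1% of all genes higher and 14.8% lower), and kidney had 7 and Meg3 lower (6.56% and 9.08%). The calls nearest the threshold were Cdkn1c in white adipose and in liver (both 0.50) and H19 in white adipose (−0.56), and just within it lay Grb10 in liver (−0.43) and in muscle (−0.41).

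Marker genes of other cells also moved between these libraries. In white adipose, the sum of 8 fibroblast and progenitor genes was 3692 CPM fed and 2777 CPM fasting, with 4 higher and 4 lower, and that of 5 white adipocyte genes was 13589 and 12575 CPM. The sum of 5 smooth muscle and pericyte genes was 1053 and 706 CPM there with 4 of the 5 lower, led by Rgs5 and Myh11. Foxj1, a gene of ciliated cells in the lung list, was at 1.76 CPM fed and 126 CPM fasting in white adipose, while Scgb1a1 of the same list was at 0.301 and 0.182 CPM. In brown adipose, 5 of 5 skeletal muscle genes (2220 and 1039 CPM, led by Myh4 and Acta1) and 8 of 8 fibroblast genes (1004 and 508 CPM, led by Col3a1 and Col1a1) were lower in the fasting library. No gene of these lists was at 0 in both libraries except 1 of the lung list in white adipose. The part of these cells in the members' values was not tested.

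Mest encodes a protein of the α/β-hydrolase fold and is known for its high level in growing white fat. In white adipose, Mest stood at 108 CPM fed and 319 CPM fasting, a log2 fold change of 1.56 (interval 1.5 to 1.63). In all other tissues it was under 10 CPM, and 6 of those 7 had less in the fasting library. Lung held 8.95 CPM fed and 4.66 CPM fasting (−0.94), and heart held 7.32 and 4.13 CPM (−0.82). Muscle (2.99 and 1.49 CPM), brown adipose (3.49 and 2.11 CPM), spleen (2.83 and 1.83 CPM) and liver (3.60 and 2.36 CPM) were lower by 1.0, 0.73, 0.62 and 0.61 on the log2 scale. Kidney was within the threshold with 2.32 CPM fed and 2.91 CPM fasting.

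Marker genes moved in heart and liver as well, where Mest was lower. In heart, 7 of 8 fibroblast genes were lower in the fasting library (885 and 571 CPM) and 5 of 5 hepatocyte genes were higher (23.9 and 84.1 CPM, led by Alb and Apob). In liver, 6 of 8 fibroblast genes (275 and 201 CPM) and 5 of 5 islet genes (6.17 and 0.681 CPM) were lower. Of 6 pancreatic acinar genes there, 4 were higher and 2 lower (88.1 and 158 CPM, led by Pnlip and Cela1). All 5 white adipocyte genes were higher in liver (27.4 and 131 CPM), mostly through Cidec at 5.17 and 102 CPM. Fabp4, the next highest of them, was at 15.8 and 21.2 CPM. None of these genes was at 0 in both libraries, and their part in the heart and liver values of the members was not tested.

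The direction of Mest in white adipose was opposite to that in 6 other tissues, at much larger counts (2515 and 8755) than in any of them (30 to 269). Mest shares 912 bases, 23.1% of its exonic length, with Copg2 on the opposite strand. Copg2 was at 15.9 to 74.7 CPM and within 0.5 on the log2 scale in every tissue. The libraries were strand-specific but the strand setting of the counting is not given in the sources used here, so in tissues where Mest is low some of its counts could belong to Copg2.

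Grb10 encodes an adaptor protein that binds the insulin and IGF1 receptors and dampens their signal. In white adipose, it stood at 101 CPM fed and 256 CPM fasting, a log2 fold change of 1.34 (interval 1.27 to 1.41). It was within the threshold in the other 7 tissues, between −0.43 in liver (8.08 and 6.01 CPM) and 0.29 in spleen (20.1 and 24.5 CPM). Heart (151 and 119 CPM), muscle (57.8 and 43.5 CPM) and liver were on the lower side, with intervals that stayed under 0. Grb10 and Mest were thus called higher only in white adipose.

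Dlk1, a membrane protein of preadipocytes and endocrine cells that restrains the formation of fat cells, was barely detected, with 122 counts over all 16 libraries and 0 counts in 5 of them. White adipose held 13 counts fed and 53 fasting (0.558 and 1.93 CPM), a log2 fold change of 1.77 with an interval of 0.90 to 2.79. Brown adipose held 22 counts fed and 6 fasting (1.32 and 0.421 CPM), a log2 fold change of −1.63 with an interval of −3.25 to −0.31. The other tissues held 0 to 10 counts per library. The opposite directions in the fat depots rest on few reads.

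**Figure D3:**
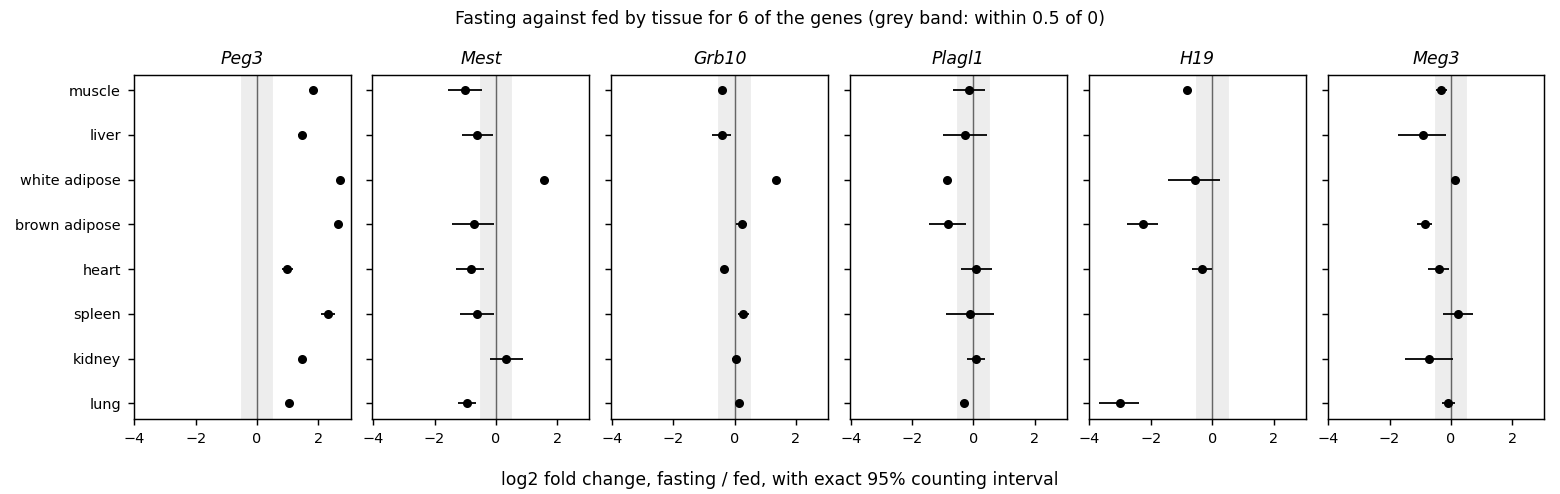
Log2 fold change, fasting over fed (horizontal axis), in each tissue (rows) for 6 of the genes, with exact 95% counting intervals as bars and a grey band within 0.5 of 0. Rows without a point had under 1 CPM in both libraries. Peg3 lies right of the band in every tissue, Mest and Grb10 only in white adipose, and H19 lies left of it in muscle, white adipose, brown adipose and lung.

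Cdkn1c encodes p57, an inhibitor of cyclin-dependent kinases that stops the cell cycle. Spleen held 2.21 CPM fed and 4.02 CPM fasting, a log2 fold change of 0.86 (interval 0.37 to 1.38). White adipose held 22.3 and 31.6 CPM (0.50, interval 0.35 to 0.66), and liver held 24 and 37 counts (0.50, interval −0.27 to 1.31, which includes 0). Brown adipose went the other way, with 26.4 CPM fed and 17.3 CPM fasting (−0.61, interval −0.84 to −0.38). Muscle, heart, kidney and lung lay within the threshold, between −0.31 and 0.35. In spleen, 6 of 6 pancreatic acinar genes were lower in the fasting library (393 and 11.6 CPM) and 4 of 4 erythroid genes were higher (2961 and 7057 CPM). A sum of 6 adrenal cortex genes, of which 3 were at 0, was 109 and 96.6 CPM there, nearly all of it Star (103 and 89.2 CPM). Cyp21a1 of that list was at 4.86 and 6.83 CPM. The part of such cells in the spleen values of Cdkn1c and Peg3 was not tested.

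Plagl1 encodes the zinc-finger protein PLAGL1, known to activate other imprinted genes, Igf2, H19 and Cdkn1c among them. In white adipose, where Plagl1 was highest, it stood at 114 CPM fed and 63.1 CPM fasting, a log2 fold change of −0.85 (interval −0.94 to −0.77). Brown adipose was also lower, with 4.64 and 2.60 CPM (−0.83, interval −1.44 to −0.25). Lung, the tissue with the next highest level, held 39.0 and 31.5 CPM (−0.31), and the other 5 tissues lay between −0.28 and 0.09 at 1.15 to 8.77 CPM. In white adipose, Plagl1 was thus lower while Mest and Grb10 were higher.

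H19 is a long noncoding RNA that is processed to a microRNA and shares control elements with Igf2. Muscle held most of it, 247 CPM fed and 139 CPM fasting, a log2 fold change of −0.83 (interval −0.89 to −0.78). Lung went from 5.39 CPM (162 counts) to 0.665 CPM (24 counts), a log2 fold change of −3.0 (interval −3.70 to −2.39) that ranked 13 of 17575 genes from the lowest. Brown adipose held 13 and 2.74 CPM (−2.24, interval −2.78 to −1.75). Heart held 11.6 and 9.18 CPM (−0.34), and white adipose held 29 and 23 counts, with an interval from −1.43 to 0.27. In liver, spleen and kidney, H19 had 3 to 14 counts per library.

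The tissues in which H19 was lower also had lower values of some marker genes. In lung, 4 of 5 cardiomyocyte genes (884 and 453 CPM, led by Myh6 and Nppa) and 6 of 8 fibroblast genes (1973 and 1579 CPM) were lower in the fasting library. In muscle, 7 of 8 fibroblast genes were lower (1090 and 620.4 CPM), while the sum of 5 skeletal muscle genes was 131232 and 130181 CPM and that of 4 satellite cell genes was 32.1 and 32.0 CPM. The part of these cells in the H19 values was not tested. Across tissues the fit gave H19 a log2 fold change of −1.11 ± 0.32 (SE), the lowest value among the 8 members that could be fitted.

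Igf2, the growth factor whose gene lies next to H19, had 72 counts in all 16 libraries, at most 13 in a library and none in the libraries of liver and kidney. A count of 0 there allows up to 0.116 to 0.134 CPM. No fold is given for Igf2 because it reached 1 CPM in no library. Its exons share 62.8% of their length with Gm49394 on the same strand, which was listed at 0 in all libraries, and whether reads on such shared bases were counted is not given in the sources used here.

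Igf2r, the receptor that takes up IGF2 and mannose 6-phosphate proteins for breakdown in lysosomes, was high everywhere and was called in no tissue. It ranged from 105 CPM in fasting liver to 511 CPM in fasting heart. Its largest differences were 0.34 in brown adipose (267 CPM fed and 339 CPM fasting) and −0.28 in liver (128 and 105 CPM). The intervals of 7 of the 8 tissues left out 0, since Igf2r had 2429 to 11563 counts per library, yet each difference was smaller than 0.5 on the log2 scale.

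Meg3, a long noncoding RNA of the maternal copy in the Dlk1 cluster, was lower in the fasting library of brown adipose, with 25.5 CPM fed and 14.2 CPM fasting (−0.85, interval −1.10 to −0.60). Liver (42 and 24 counts, −0.92) and kidney (37 and 26 counts, −0.70, interval −1.49 to 0.05) were also called lower at low counts. White adipose, where Meg3 was highest, held 49.6 and 54.4 CPM (0.13). Muscle, heart, spleen and lung lay between −0.39 and 0.22. Meg3 and Dlk1 thus were both lower in brown adipose, while in white adipose Meg3 was within the threshold and Dlk1 was higher.

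Across the 8 tissues, the fit gave log2 fold changes ± SE of −0.27 ± 0.14 for Plagl1, −0.29 ± 0.13 for Meg3, −0.26 ± 0.27 for Mest, 0.12 ± 0.07 for Igf2r, 0.17 ± 0.15 for Cdkn1c and 0.15 ± 0.16 for Grb10. Igf2 and Dlk1 had too few counts to be fitted. Library totals left the median gene of muscle and liver at −0.14 and −0.13 on the log2 scale and that of the other tissues between −0.09 and 0.07, so folds within a tissue are best read against these medians. With TMM or DESeq2 factors, the calls of H19 and Cdkn1c in white adipose and of Mest in liver were lost and no call was gained.

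The second question was where each gene was expressed. Pairs of tissues were compared with edgeR's quasi-likelihood test on TMM-scaled counts, with the treatment as a term and Benjamini-Hochberg adjustment over 23580 genes within each of 28 pairs. The fed and the fasting library of a tissue are the observations of that tissue. Of 252 comparisons of the 9 members tested, 170 (14 of them of Dlk1) passed an adjusted p of 0.05, where 50.8% of all comparisons did. Plagl1 differed in 24 of 28 pairs, Igf2r and Meg3 in 23, Grb10 in 22, Peg3 in 21, H19 in 19, Cdkn1c in 13 and Mest in 11. Dlk1 passed in the other 14, but with 122 counts in all it entered the fit through the libraries where it is high, and heart and lung had 0 counts, so nothing is read from its comparisons. Levels below are TMM-scaled CPM as mean ± SD of the fed and the fasting library of a tissue (n = 2). The TMM factors ran from 0.534 to 0.675 in muscle and liver and from 1.39 to 1.51 in lung and spleen, so muscle and liver stand higher and lung and spleen lower on this scale than on library totals.

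Peg3 was highest in white adipose (749.5 ± 756) and brown adipose (408 ± 421), which did not differ from each other (fitted log2 difference 0.87, edgeR adjusted p = 0.0866). Brown adipose was above muscle (144 ± 117, fitted difference 1.29, edgeR adjusted p = 0.0170). Muscle, kidney (112 ± 77.9), liver (72.5 ± 51.1), lung (53.0 ± 27.8) and heart (36.6 ± 17.9) followed, and no neighbours in that order passed the threshold. Further apart, muscle and kidney were above lung (edgeR adjusted p = 0.0122 and 0.0423) and above heart (edgeR adjusted p = 0.00525 and 0.00852). Spleen was lowest (18.7 ± 17.6) and was below all other 7 tissues, heart included (difference 1.35, edgeR adjusted p = 0.010). On library-total CPM the step from heart to spleen was not clear, since spleen (9.36 and 46.3 CPM) and heart (22.0 and 43.6 CPM) overlapped for Peg3. Each SD spans the fed and the fasting library of a tissue.

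White adipose stood above all 7 other tissues for Mest and Plagl1. Mest was at 158 ± 104 there and at 6.31 ± 2.32 in heart, the next in order (fitted log2 difference 4.69, edgeR adjusted p = 3.94e-05). No later neighbours passed the threshold for Mest, though spleen, the lowest, was below heart (edgeR adjusted p = 0.00569). Plagl1 was at 67.4 ± 30.6 in white adipose and 24.6 ± 2.75 in lung (difference 1.44, edgeR adjusted p = 0.00132), with kidney next (8.10 ± 0.651). Heart, muscle, brown adipose and liver followed for Plagl1 without a difference between neighbours. Heart and muscle were above liver (edgeR adjusted p = 0.0125 and 0.0227), and spleen was lowest (0.796 ± 0.0343).

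H19 was highest in muscle. It was at 350 ± 127 there and 11.5 ± 1.59 in heart, a ratio of 30.4 (fitted log2 difference 4.88, edgeR adjusted p = 5.40e-05). The same ratio was 18.6 on library-total CPM. Heart did not differ from brown adipose (7.51 ± 6.87, edgeR adjusted p = 0.226), which was above lung (2.07 ± 2.25, edgeR adjusted p = 0.00783). White adipose, liver, spleen and kidney had under 1 TMM-scaled CPM on average.

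Igf2r was highest in heart (549 ± 40.9), above kidney (393 ± 62.9, fitted log2 difference 0.50, edgeR adjusted p = 0.0186). Kidney, muscle and brown adipose did not differ between neighbours, though kidney was above brown adipose (edgeR adjusted p = 0.0435). Brown adipose was above white adipose (291 ± 51.9 against 201 ± 18.9, edgeR adjusted p = 0.0139). White adipose, lung and liver followed without a difference between neighbours, and spleen was lowest (73.3 ± 2.95, below liver with edgeR adjusted p = 1.79e-05). On the library-total scale, liver (128 and 105 CPM) and spleen (107 and 112 CPM) overlapped for Igf2r, so that step depends on the scaling, and muscle (174 and 156 CPM) stood below brown and white adipose there.

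Grb10 was highest in heart (149 ± 21.1), with white adipose (132 ± 75.3) and muscle (92.1 ± 15.0) not separated from the neighbour above. On library-total CPM the order of white adipose (101 and 256 CPM) and heart (151 and 119 CPM) was not clear either, and muscle (57.8 and 43.5 CPM) stood below lung and kidney. Kidney and lung were level (57.9 ± 3.06 and 57.2 ± 6.32), lung was above brown adipose (30.4 ± 3.75, edgeR adjusted p = 0.0327), and spleen (14.9 ± 2.21) and liver (10.8 ± 1.60) were lowest. The order of Cdkn1c ran from muscle (29.7 ± 1.63) through brown adipose, white adipose, lung and heart to kidney (12.9 ± 1.46). No neighbours in that order differed, though muscle was above kidney (edgeR adjusted p = 0.00392). That order depends on the scaling, since on library-total CPM lung (27.8 on average) and white adipose (26.9) led and muscle (16.3) stood next to heart below brown adipose. A step then separated kidney from spleen (2.08 ± 0.875, fitted log2 difference 2.66, edgeR adjusted p = 2.06e-05) and liver (1.97 ± 0.601).

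Meg3 was highest in white adipose (39.0 ± 0.483) and muscle (29.8 ± 3.42), which did not differ (edgeR adjusted p = 0.232). Muscle was above brown adipose (19 ± 7.47, edgeR adjusted p = 0.0434), which was above heart (10.1 ± 1.66, edgeR adjusted p = 0.0170). On library-total CPM, muscle (18.2 and 14.6 CPM) overlapped with brown adipose (25.5 and 14.2 CPM) and stood far below white adipose, so the place of muscle for Meg3 depends on the scaling. Lung (7.99 ± 0.0249) was above liver (2.13 ± 0.812, fitted log2 difference 1.88, edgeR adjusted p = 0.000131), and liver, spleen and kidney closed the order without a difference between neighbours. Dlk1 was under 1 TMM-scaled CPM on average in every tissue.

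Per length of exon, Peg3 was the highest member in the fasting white adipose library, with 130 RPKM (CPM per kilobase of exon). Mest followed with 80.9 RPKM, Igf2r with 31.8 RPKM, Grb10 with 28.1 RPKM and Cdkn1c with 15.5 RPKM. Plagl1 stood at 8.08 RPKM and Meg3 at 3.01 RPKM, while Dlk1, H19 and Igf2 were under 0.35 RPKM. In fed muscle, the order was another, since H19 had 100.5 RPKM and Peg3 2.53 RPKM.

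The members' profiles over the 16 libraries were set beside each other by Pearson's correlation of log2(CPM + 1), as a description. For each member, the member most like it is given. Cdkn1c and Grb10 were most alike (r = 0.83). Plagl1 and Mest were closest to each other (0.80), and so were Peg3 and Dlk1 (0.72), although Dlk1 had only 122 counts in all. Igf2r was most like Grb10 (0.74), and Meg3 was most like Cdkn1c (0.74). H19 was least like the other members, with its highest r at 0.44 for Meg3. Among 21965 genes with at least 1 CPM in a library, Gm18040 (r = 0.91), Lrrc58 (0.90), Pmepa1os (0.89), Gm19181 (0.89) and Gm43526 (0.88) were most like Peg3. Of these, Lrrc58 alone was well expressed throughout (109 to 1154 CPM), while Gm18040 and Gm19181 reached 6.05 and 8.50 CPM and Pmepa1os and Gm43526 only 2.01 and 2.41 CPM, and the lowest level of each was near or at 0, so their likeness rests on few counts. These points share their pools of mice.

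Zim1, the neighbour of Peg3, was looked at after its values were seen and ranked 25 of 21965 by likeness to Peg3 (r = 0.82). In white adipose, it stood at 7.0 CPM fed and 173 CPM fasting, a log2 fold change of 4.62 (interval 4.40 to 4.86). Zim1 was also higher in the fasting library of kidney (3.88 and 20.0 CPM), brown adipose (10.1 and 33.5 CPM), muscle (6.48 and 18.7 CPM), spleen (0.353 and 1.29 CPM) and lung (0.865 and 1.44 CPM). Heart went against the others, with 6.33 CPM fed and 1.51 CPM fasting (−2.06, interval −2.79 to −1.41), whereas Peg3 was higher there. Liver had 6 and 7 counts of Zim1. The fit across tissues gave 1.68 ± 0.59 (SE) with an edgeR adjusted p of 0.121, which did not pass, and over 14 alternatives it ranged from 0.0354 with DESeq2 to 1.0. Usp29, which shares the start region of Peg3 and was likewise named after its values were seen, had 79 counts in all, 30 of them in fasting and 1 in fed white adipose.

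**Figure D4:**
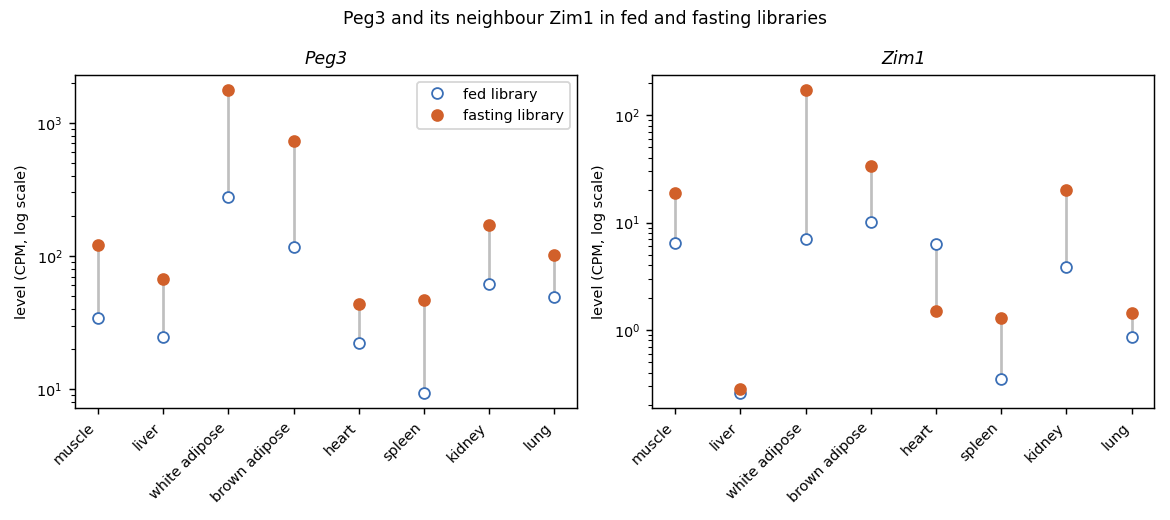
Level of Peg3 and Zim1 in CPM (vertical axes, log scale) by tissue, with an open point for the fed and a filled point for the fasting library. Both genes are higher in the fasting library of muscle, white adipose, brown adipose, spleen, kidney and lung, and they differ in direction in heart.

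Other genes known as imprinted were listed to set the members in their class. The counts do not show whether a listed gene is imprinted in the tissues used here. Of 54 genes listed, 40 could be fitted across tissues, and 4 passed an edgeR adjusted p of 0.05, 1 higher and 3 lower, where 4.39% of 17296 genes passed, 2.31% higher and 2.08% lower. Dcn, the proteoglycan decorin of connective tissue, rose by 0.34 ± 0.06 (SE) on the log2 scale (edgeR adjusted p = 0.0214) and lay above 0 in 8 of 8 tissues, in none of them past 0.5. Nnat, a small membrane protein of brain and fat cells, fell by 1.31 ± 0.32 (edgeR adjusted p = 0.0492), with 1104 CPM fed and 441 CPM fasting in white adipose, and was lower in 5 of the 6 tissues with 1 CPM. Gatm, an enzyme of creatine synthesis, fell by 0.64 ± 0.13 (edgeR adjusted p = 0.0288), with 673 and 247 CPM in kidney, and was lower in 8 of 8 tissues, 6 of them past 0.5. Rian, a noncoding RNA that lies 32.1 kb beyond Meg3, fell by 0.78 ± 0.17 (edgeR adjusted p = 0.0361), and it was lower in 7 of 8 tissues, 5 of them past 0.5.

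The 3 listed genes with the highest CPM were Gnas, Slc38a4 and Dcn. Gnas, the stimulatory G-protein subunit, lay between −0.12 and 0.16 in all 8 tissues at 290.0 to 2287 CPM. Slc38a4, an amino acid transporter, was at 1179 CPM fed and 1560 CPM fasting in liver, and at 2.96 and 17.7 CPM in white adipose. Leaving out both libraries of a tissue left 0 to 4 of these genes past the threshold, all 4 without spleen, and Dcn kept its call in 5 of 8 such fits and Nnat, Gatm and Rian in 2 each. Without brown adipose, heart or lung, 0 passed with edgeR, with 10 at an unadjusted p under 0.05 in each of these fits and 12 in the fit of all tissues. Over all genes, 156 of 17508, 175 of 17626 and 234 of 16898 passed in these fits, against 759 of 17296 with all tissues. Over the 8 fits, the log2 fold changes kept their sign and ran from 0.33 to 0.36 for Dcn, −0.89 to −0.68 for Rian, −0.72 to −0.51 for Gatm and −1.50 to −1.04 for Nnat. DESeq2 on all 16 libraries called 8 of 35 listed genes, where it called 1864 of 15375 genes in all.

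Over tissues, the 54 genes gave 292 combinations at 1 CPM, of which 30 were higher and 49 lower. All genes gave 10.2% higher and 13.3% lower calls, and no test was made of these shares. Ndn, named after its values were seen, encodes necdin and lay at 34.3 CPM fed and 6.60 CPM fasting in brown adipose. Its value across tissues was −0.88 ± 0.23 (SE, edgeR adjusted p = 0.0585), which did not pass.

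IGF2 and IGF2R belong to the insulin-like growth factor axis, in which IGF1 and IGF2 act on the IGF1 receptor, binding proteins hold them in blood and tissue, and growth hormone drives IGF1. Of 15 genes of this axis listed, 12 could be fitted across tissues, and 3 passed, 2 higher and 1 lower, against 2.31% and 2.08% of all genes. Insr, the insulin receptor, rose by 0.45 ± 0.07 (SE) on the log2 scale (edgeR adjusted p = 0.0154) and lay above 0 in 8 of 8 tissues, 3 of them past 0.5. Igf1r, the receptor of IGF1, rose by 0.59 ± 0.14 (edgeR adjusted p = 0.0483), from 79.0 to 180.1 CPM in white adipose, and lay above 0 in 7 of 8 tissues, 4 of them past 0.5. Igfbp5, a binding protein, fell by 0.92 ± 0.21 (edgeR adjusted p = 0.0413), from 591 to 98.4 CPM in muscle, and was lower in 8 of 8 tissues, 7 of them past 0.5.

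Of these, Insr kept its call whichever tissue was left out (edgeR adjusted p 0.0176 to 0.0471). Without both adipose tissues, its log2 fold change was 0.46 and its edgeR adjusted p was 0.0629. Igf1r and Igfbp5 each kept their call in 1 of 8 fits without a tissue, with edgeR adjusted p up to 0.120 and 0.0952. Their log2 fold changes ran from 0.51 to 0.69 and from −1.04 to −0.72 over these fits. Igf1r also lost its call with total counts in place of TMM scaling (edgeR adjusted p = 0.0644). With no tissue term, none of the 3 passed, while all 3 passed with DESeq2, with robust dispersion and with no filter. The listed genes with the highest CPM were Ghr, Igfbp4 and Igfbp2, none of which passed (edgeR adjusted p = 0.224, 0.319 and 0.165). Igf1 and Igfbp1 were named after their values were seen. Igf1 lay at −0.57 ± 0.16 (SE, edgeR adjusted p = 0.0636), with 737 CPM fed and 675 CPM fasting in liver and 45.5 and 18.7 CPM in muscle. Igfbp1, a binding protein that the liver releases in fasting, could not be fitted and stood at 28.1 CPM fed and 186 CPM fasting in liver.

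**Figure D5:**
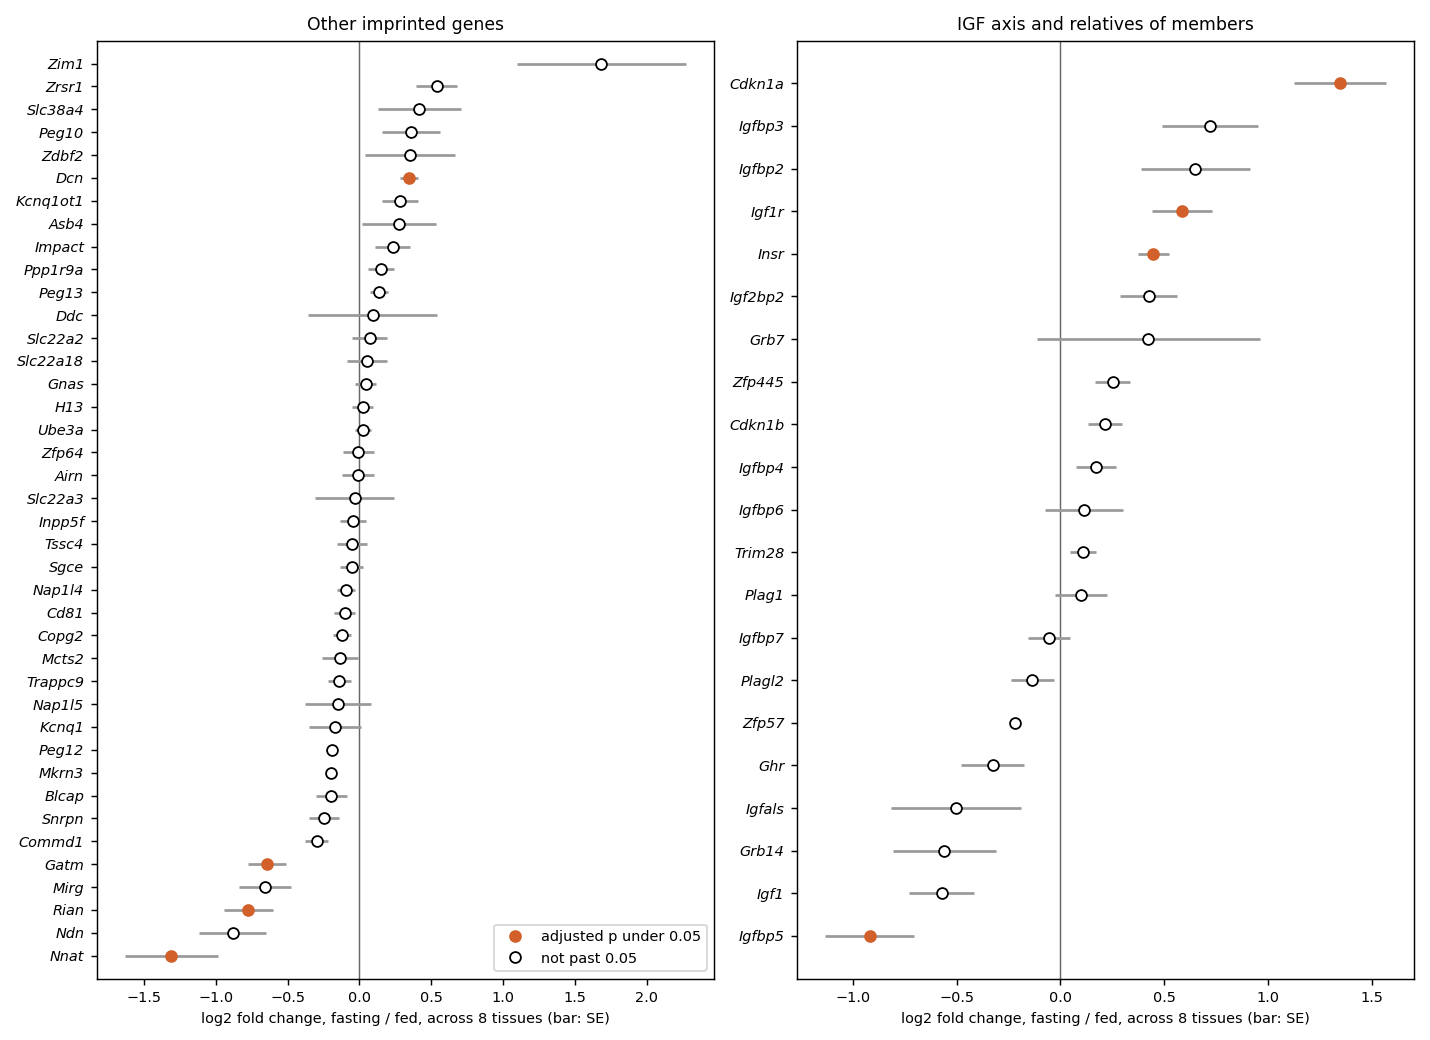
Log2 fold change of fasting over fed across the 8 tissues (horizontal axes) with SE as bars (none for Mkrn3, Peg12 and Zfp57, whose p was bounded by counting variation) for the 40 other imprinted genes (left) and for the genes of the IGF axis and the relatives of the members (right) that could be fitted, with filled points for an edgeR adjusted p under 0.05. Dcn, Igf1r, Insr and Cdkn1a lie to the right and Gatm, Rian, Nnat and Igfbp5 to the left among the filled points, and Zim1 has the highest value of the imprinted genes with a wide error.

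Close relatives of the members that are not imprinted, or that act on imprinted loci, were compared as well. Of 10 such genes, 9 could be fitted and Cdkn1a alone passed, against 4.39% of all genes. Cdkn1a, which encodes the kinase inhibitor p21 of the family of Cdkn1c, rose by 1.35 ± 0.22 (SE) on the log2 scale (edgeR adjusted p = 0.0154), with 17.2 CPM fed and 71.1 CPM fasting in lung. It was higher in 7 of 8 tissues. Without brown adipose, its log2 fold change was 1.24 and its edgeR adjusted p was 0.0529. Cdkn1b, which encodes p27 of the same family, lay at 0.22 ± 0.08 (edgeR adjusted p = 0.147).

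Grb7 and Grb14, adaptors of the family of Grb10, lay at 0.42 ± 0.54 (edgeR adjusted p = 0.669) and −0.56 ± 0.25 (0.202). Grb7 stood at 0.515 CPM fed and 17.8 CPM fasting in white adipose, the tissue in which Grb10 was higher, and lay within 0.5 in liver, spleen, kidney and lung. Plag1 and Plagl2, zinc-finger relatives of Plagl1, lay at 0.10 ± 0.13 (edgeR adjusted p = 0.664) and −0.13 ± 0.10 (0.466). Zfp57, Zfp445 and Trim28, which keep the methylation of imprinted control regions, lay at −0.22, 0.25 ± 0.09 and 0.11 ± 0.06 (edgeR adjusted p = 0.783, 0.117 and 0.334). No SE is given for Zfp57, whose p was bounded by counting variation. Dlk2, the relative of Dlk1, had 50 counts in all and could not be fitted.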

How the data were processed

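Short-read RNA-Seq of 8 tissues under 2 treatments was analysed (16 libraries of pooled tissue, 14245178 to 36069968 counts each). Reads (paired, 100 bases) went through fastp 0.23.2 and FastQC 0.11.8, HISAT2 2.2.1.0 placed them on GRCm38, and the authors deposited featureCounts counts per gene on GENCODE M24, without normalization. The deposited table also has gene coordinates and the exonic length, an other value that is no measurement. Symbols were matched by identifier (55144 of 55385 genes). No column was left out. The values of a marker list of immune cells are not reported here.

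Within a tissue, log2((CPM fasting + 0.01)/(CPM fed + 0.01)) on library totals was called past 0.5 at 1 CPM in a library, with no test. Tissue pairs and the fasting effect across tissues were tested with edgeR 4.0.16 (R 4.3.3; TMM, filterByExpr, quasi-likelihood, Benjamini-Hochberg, adjusted p under 0.05), and the scripts were tested on simulated data. The p-values of the fasting effect measure how the fed to fasting difference varied between tissues of the same pools. Those of tissue pairs rest on that same variation, with the fed and the fasting library as the 2 observations of a tissue. Neither measures a spread between animals. DESeq2 1.42.0, other scalings, filters, thresholds and each tissue or library left out were alternatives. The members, gene lists and markers were chosen with earlier results of these data known. Named were all members and relatives, genes of the other lists past the threshold or among the 3 highest by CPM, the 5 genes most like Peg3, and the 2 highest markers of a list, with further genes named as chosen after their values were seen. Figures were drawn with matplotlib 3.10.9 and other steps ran in Python 3.11.15 (scipy 1.17.1, pandas 2.3.3).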

Additional observations from a re-analysis of the deposited data

Results flagged for a closer look

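Mest was higher in the fasting library of white adipose and lower in 6 other tissues, and its largest and smallest called log2 fold changes lay 2.57 apart. Dlk1 was higher in white adipose and lower in brown adipose, 3.40 apart on the log2 scale, at 53 counts or fewer per library. Cdkn1c was higher in spleen, white adipose and liver and lower in brown adipose, 1.47 apart on the log2 scale. Each of these was marked because tissues moved in opposite directions under the same contrast, and with 1 library per tissue and treatment the difference was not tested.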

How the results depend on the processing

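The 31 calls of members by tissue (14 higher, 17 lower) were 28 with TMM factors or DESeq2 size factors, 30 with a library total that omits its 10 highest genes, 25 with a pseudocount of 1 CPM and 38 with no CPM minimum. They were 19 (11 higher, 8 lower) at a minimum of 5 CPM and 14 (10 higher, 4 lower) at a log2 fold change above 1. The study's own rule, a fold with Fisher's exact test on the pair of libraries, gave 23, of which 10 were lower. It dropped Mest in liver, brown adipose and spleen, and Dlk1 in brown adipose. It also dropped Meg3 in liver and kidney, H19 in white adipose and Cdkn1c in liver. Leaving out a tissue gave 24 to 29 calls, with 9 (without white adipose) to 13 higher and 11 (without brown adipose) to 16 lower. No log2 fold change of a member changed sign past the threshold, and Peg3 lay between 0.95 and 2.69 over all scalings and pseudocounts. H19 in lung was −1.94 with a pseudocount of 1 CPM. The cause of these shifts was not tested where the setting itself does not show it.

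Of 252 comparisons of members between tissues, 153 passed with no treatment term, 169 with robust dispersion and 172 with total counts, against 170. Over all genes, 317426, 335378 and 382697 of 660240 comparisons passed at these settings, against 335629. Of 280 comparisons, 180 passed with no filter (321469 of 1038352 over all genes) and 181 with DESeq2 (322336 of 686105). These counts include Dlk1, which gave 14 of the 170. No count is given without 1 library, since its tissue then keeps 1. The 4 other imprinted genes past the threshold were 6 with total counts, 6 with no filter, 3 with robust dispersion, 8 with DESeq2 and 0 with no tissue term (2 at an unadjusted p under 0.05). Over all genes, these settings called 947 of 17296, 677 of 37084, 746 of 17296, 1864 of 15375 and 1 of 17296, against 759 of 17296. Leaving out a tissue gave 0 to 4, where 156 (without brown adipose) to 721 (without spleen) of all genes passed. It gave 1 without muscle or kidney and 2 without liver, where 220, 364 and 544 of all genes passed. Leaving out both adipose tissues gave 0 with edgeR (12 at an unadjusted p under 0.05), where 131 of 17300 genes passed. The fit across tissues is paired by tissue, and the labels give no replicate numbers for any other pairing. Depth limits Igf2, Dlk1 and H19 in liver, spleen and kidney, which had 14 counts or fewer per library apart from Dlk1 in fat. All p-values rest on 2 pools of mice.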
